A study of Mus musculus with 18 samples.

Results

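The genes of glycolysis and glycogen metabolism were examined in skeletal muscle of myotonic dystrophy (DM1) mice. A list of 37 genes was taken by symbol, covering the enzymes from hexokinase to lactate dehydrogenase, the glycerol phosphate dehydrogenases, and the enzymes and regulatory subunits that make and degrade glycogen. Of these, 36 were analysed among the 46725 genes in the data, and 1 was not analysed here. All 36 passed the filter on low counts in both muscles. The rule lists them by symbol and sets no threshold on a measured value. The members were chosen with earlier results of these data known, and the rule names in advance the Phka1 exon described below.

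RNA-Seq libraries came from gastrocnemius and quadriceps of 9 mice on the FVB strain at 20 weeks of age, in 3 groups of 3. WT mice and HSA-LR mice were labelled as untreated, and a further group of HSA-LR mice was labelled as given the agent PIP6a-PMO, by the intravenous route; the protocol names saline as the other injection. HSA-LR mice carry a human skeletal actin transgene with an expanded CTG repeat, which is transcribed in skeletal muscle, so both HSA-LR groups share the transgene and WT mice lack it. Pip6a-PMO is a morpholino oligonucleotide against CUG repeats joined to a cell-penetrating peptide. The comparison of HSA-LR with WT gives the change that goes with the transgene, HSA-LR mice treated with Pip6a-PMO against HSA-LR mice gives the change that goes with treatment, and treated mice against WT gives what remained. The 3 comparisons share samples, so their values are set side by side and no agreement between them is counted as evidence.

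Between 98916844 and 143135976 counts were assigned per library. In the deposited labels 1 WT mouse, mouse 2, is female and the other 8 mice are male. The Y-linked genes of WT mouse 2 nevertheless summed to 154 and 181 CPM in its muscles, where CPM is a count scaled to the size of its library, and those of WT mouse 3, labelled male, to 1.15 and 1.43 CPM. Calls that were lost without either mouse are given with their values. The fast-fiber markers, such as myosin and parvalbumin genes, were abundant in every library, with 12 genes that summed to between 176857 and 319391 CPM. In quadriceps the 7 adipocyte markers summed to 1409, 405 and 538 CPM in WT mice, to 1063, 1405 and 127 CPM in HSA-LR mice and to 289, 334 and 162 CPM in treated mice. The 3 libraries over 1000 CPM, from WT mouse 1 and HSA-LR mice 1 and 2, stood apart, although none of the 7 markers passed the test in any comparison in edgeR. The treated gastrocnemius of mouse 3 also stood apart, with a median over genes of 39.5% of counts in the upstream part of the gene against 44.0% to 46.4% in the other libraries. The differences below compare RNA of whole muscle, in which fewer cells of a type and less RNA per cell cannot be told apart.

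Glycolysis converts glucose to pyruvate and yields ATP without oxygen, and fast-twitch muscle fibers rely on it during brief, strong contractions. Muscle stores glucose as glycogen, which phosphorylase cleaves when phosphorylase kinase, a complex of alpha, beta, gamma and calmodulin subunits, activates it in answer to calcium and adrenaline. Glycogen synthase acts in the opposite direction and is turned on when protein phosphatase 1 is brought to the glycogen particle by targeting subunits.

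Among these genes and their exons, the smallest adjusted P lay inside a single transcript, that of Phka1 (ENSMUSG00000034055), which encodes the muscle form of the phosphorylase kinase alpha subunit. One of its exons, counted as bin 017, spans chrX:102557096-102557272 on the minus strand of GRCm38. It is exon 19 of 33 and wholly coding. Its 177 bases make up 59 codons, so that leaving it out keeps the reading frame. Of the 7 annotated transcripts of Phka1, 6 contain it and 1 joins the neighbouring exons without it. The exon is shown because it carries the result, with tetramers of the kind that muscleblind proteins are known to bind in capitals (the tetramer TGCT, its variant CGCT that starts with C, its variant TGCC that ends with C, and the variant CGCC that does both), and the 3 junctions are shown with 30 bases on each side and the downstream piece in capitals.
Phka1 exon: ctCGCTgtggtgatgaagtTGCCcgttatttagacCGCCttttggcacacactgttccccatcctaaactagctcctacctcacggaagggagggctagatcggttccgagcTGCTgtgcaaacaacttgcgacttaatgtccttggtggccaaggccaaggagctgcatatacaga
Upstream exon joined to the exon: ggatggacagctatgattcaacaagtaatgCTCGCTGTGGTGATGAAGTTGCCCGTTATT
Exon joined to the downstream exon: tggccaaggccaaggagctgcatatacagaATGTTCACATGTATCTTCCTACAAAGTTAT
Upstream exon joined to the downstream exon: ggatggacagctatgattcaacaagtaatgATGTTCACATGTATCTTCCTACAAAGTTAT
The upstream exon has 170 bases and the downstream exon 92, with introns of 2292 and 1478 bases between them and exon 19. Each of the 4 tetramers occurred 1 time on the sense strand, with no overlap between them, and 1 of them was found on the opposite strand. Among 980 coding exons of the same length, 92.4% held at least 1 of these tetramers on the sense strand, 91.4% on the opposite strand and 33.8% held at least 4 on the sense strand, so the count is a description of the sequence and marks no binding site.

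In WT gastrocnemius, exon 19 took 2.06%, 1.97% and 1.73% of all Phka1 counts. Its share was 0.203%, 0.206% and 0.261% in HSA-LR mice, and 1.15%, 1.58% and 1.38% in HSA-LR mice treated with Pip6a-PMO. The 3 groups did not overlap, with the treated mice between the other groups. Quadriceps showed the same order, with 1.91%, 2.27% and 1.90% in WT, 0.321%, 0.327% and 0.284% in HSA-LR, and 1.19%, 1.49% and 1.42% in treated mice. The read pairs behind these shares were many, from 177 to 350 in HSA-LR libraries, 1111 to 2253 in treated libraries and 1898 to 3134 in WT libraries. Relative to the rest of Phka1, the exon fell by 2.16 on the natural-log scale in HSA-LR gastrocnemius (adjusted P = 8.22e-30). In HSA-LR quadriceps the value on this scale was -1.89 (adjusted P = 1.02e-26). It rose by 1.82 with treatment in gastrocnemius (adjusted P = 2.60e-23) and by 1.48 in quadriceps (adjusted P = 2.58e-16). Treated mice against WT gave natural-log differences of -0.33 and -0.41, which did not pass adjustment over all bins (unadjusted P = 0.0128 and 0.00732). The differences in mean share were -1.70, 1.15 and -0.55 percentage points in gastrocnemius for HSA-LR against WT, treated against HSA-LR and treated against WT, and -1.71, 1.05 and -0.66 points in quadriceps. Each of these 6 differences had P = 0.1 in a two-sided exact permutation test, the smallest P that 3 mice against 3 allow.

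**Figure D1:**
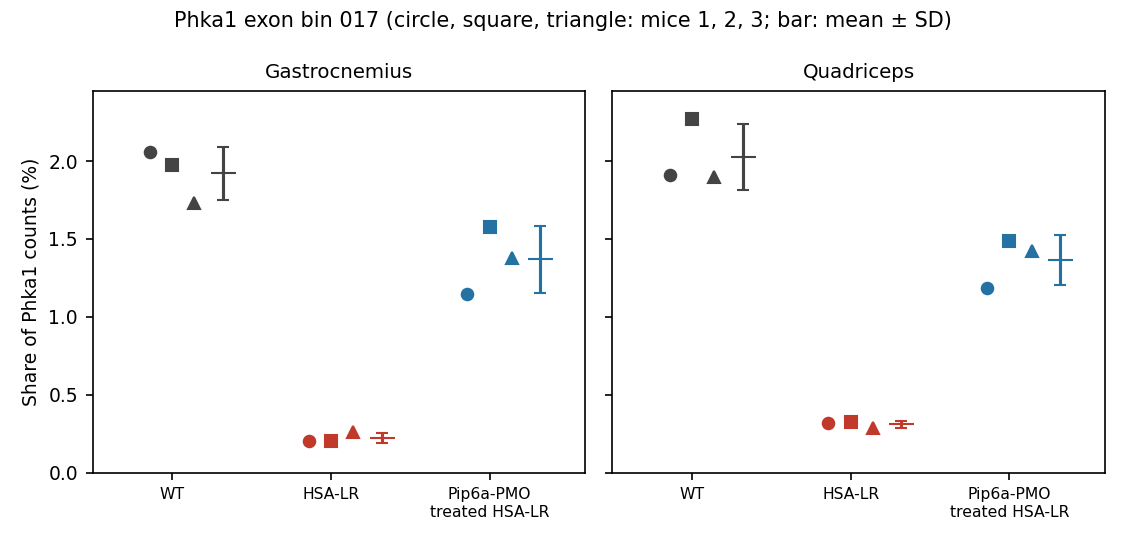
Share of Phka1 counts in exon 19 (bin 017), in percent, for every mouse, with the 3 groups of each muscle side by side; circles, squares and triangles are mice 1, 2 and 3, and bars are the group mean ± SD (n = 3). HSA-LR mice lie between 0.203% and 0.327%, treated mice between 1.15% and 1.58%, and WT mice between 1.73% and 2.27%.

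A measure that used only the flanking exons gave the same order. The exon's counts per base relative to those of its neighbours averaged 0.479 in WT, 0.0529 in HSA-LR and 0.349 in treated gastrocnemius, and 0.495, 0.0748 and 0.326 in quadriceps. The other 34 Phka1 bins held 0 further calls in edgeR's exon-level test, in either muscle. The values of the other tested bins ran from -0.19 to 0.61 on the natural-log scale, and their smallest unadjusted P was 0.00804. Total Phka1 transcript was called in only 1 of the 6 comparisons. It measured 1029.97, 918 and 759.8 CPM in WT gastrocnemius, 672, 738 and 764 CPM in HSA-LR and 827, 1149 and 829 CPM in treated mice. In quadriceps it was 918, 1211 and 895 CPM in WT, 743, 766 and 924 CPM in HSA-LR and 1099, 1037 and 1170.4 CPM in treated mice. Every HSA-LR mouse lay below every treated mouse, and the treated group was called higher than HSA-LR (log2 difference 0.45 ± 0.14, adjusted P = 0.0829). That call was lost without any one of HSA-LR mice 1 and 2 and the 3 treated mice (adjusted P = 0.142 to 0.245). Without the 3 quadriceps libraries with high adipocyte transcripts the Phka1 log2 difference was 0.245 (adjusted P = 0.639), and with their summed level as a covariate it was 0.32 (adjusted P = 0.142).

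At the level of whole genes, 8 of 36 members (22.2%) changed in HSA-LR gastrocnemius against WT, 4 up and 4 down, where 15.5% of all 15625 genes tested were called at adjusted P under 0.1. In HSA-LR quadriceps 9 of 36 (25%) changed, 4 up and 5 down, where 20.3% of all 15574 genes were called. With treatment 9 of 36 (25%) changed in gastrocnemius, 8 up and 1 down, beside 10% of all genes, and 7 of 36 (19.4%) in quadriceps, 4 up and 3 down, beside 13.8% of all genes. Treated mice against WT gave 0 of 36 calls in gastrocnemius with edgeR, beside 1.04% of all genes, with 6 members (10.5% of all genes) at an unadjusted P under 0.05 and 2 members (3.39% of all genes) called by DESeq2. The same comparison in quadriceps gave 1 of 36 (2.78%), beside 1.41% of all genes. These numbers moved with single libraries, and the share of all genes called moved with them. HSA-LR gastrocnemius against WT gave 3 calls without HSA-LR mouse 1 or 3, beside 8.60% and 8.83% of all genes, 5 without HSA-LR mouse 2 (8.52%), 4 without WT mouse 1 or 2 (10.5% and 9.34%) and 13 without treated mouse 3 (22.1%). Treatment in gastrocnemius gave 2, 5 and 3 calls without HSA-LR mice 1, 2 and 3 (2.69%, 3.09% and 4.98% of all genes), 4 without treated mouse 2 (5.54%) and 8 without treated mouse 3 (9.15%), the library with fewer counts in the upstream part of genes. In quadriceps, HSA-LR against WT gave 3 calls without WT mouse 1 and 5 without WT mouse 3 or HSA-LR mouse 2 or 3 (15.6%, 14.8%, 13.5% and 17.1%). Treatment in quadriceps gave 1 call without HSA-LR mouse 1 or treated mouse 1 (4.36% and 5.32%), 2 without HSA-LR mouse 2 (5.52%), 11 without HSA-LR mouse 3 (17.5%) and 3 without treated mouse 2 or 3 (6.46% and 8.99%). Treated quadriceps against WT gave 0 calls in edgeR without any one of the 3 WT mice, the 3 treated mice and HSA-LR mouse 2 (0.314% to 1.33%), and 2, Fbp2 and Pygl, without HSA-LR mouse 3 (1.93%). Without the 3 libraries with high adipocyte transcripts, the quadriceps comparisons gave 4 calls for HSA-LR against WT, 1 for treatment and 1, Pygl, for treated against WT, beside 4.72%, 0.678% and 0.247% of all genes. The median log2 fold change (FC) over the members was -0.17, 0.22 and 0.14 in gastrocnemius for HSA-LR against WT, treated against HSA-LR and treated against WT, and -0.03, 0.02 and 0.03 in quadriceps, while the median over all genes stayed between -0.01 and 0.01. In all, 17 members (47.2%) were called at least once and 19 never were, beside 30.3% of all 15935 genes called at least once. Of the members, 6 (16.7%) were called in HSA-LR against WT in both muscles (Fbp2, Gpd2, Pfkfb1, Gys1, Pgk1 and Aldoc), beside 10.6% of the 15264 genes tested in both.

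**Figure D2:**
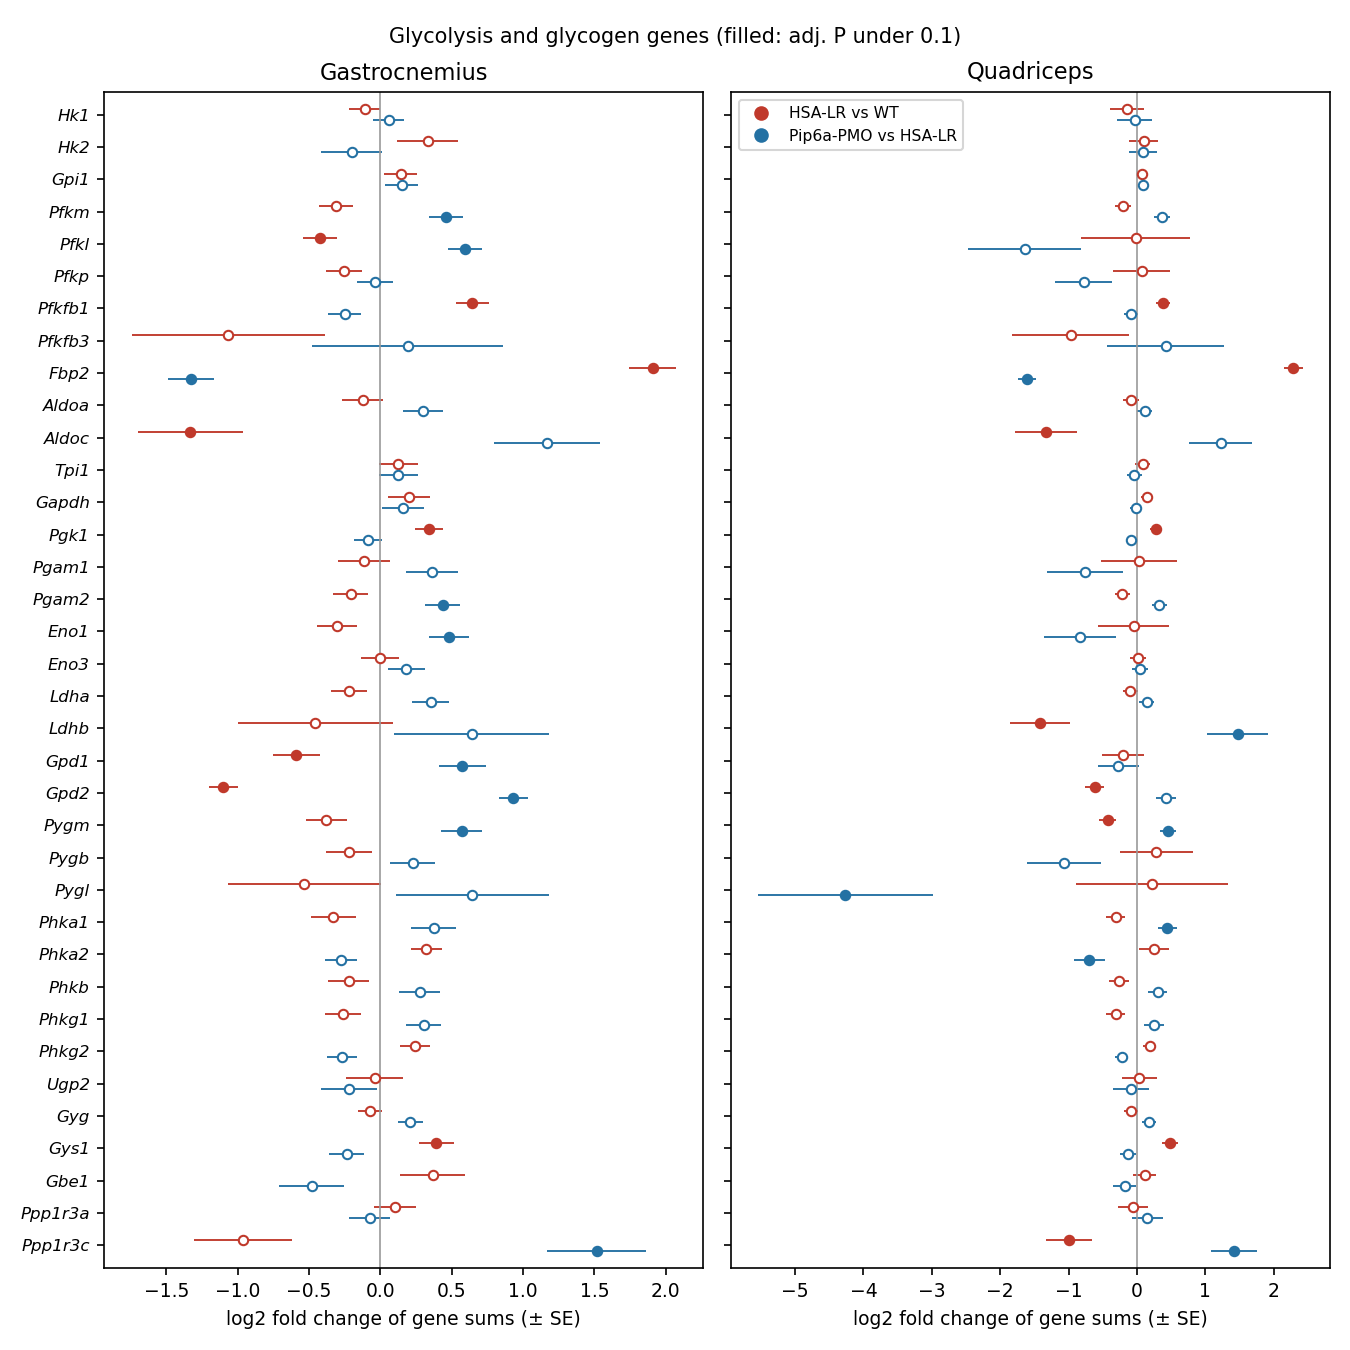
Log2 FC of the 36 members, with bars of 1 standard error, for HSA-LR against WT and for treated against HSA-LR in each muscle; filled symbols passed the test at adjusted P under 0.1, and the panels have different x ranges. Fbp2 lies farthest right for HSA-LR against WT in both muscles, at 1.91 and 2.29, and Pygl in quadriceps has the widest bar.

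Among the enzymes at the fructose phosphate step, Fbp2 had the largest log2 FC, in size, of the called members whose groups did not overlap. It encodes the muscle fructose bisphosphatase, which reverses the phosphofructokinase reaction. Fbp2 stood at 17.9, 16.1 and 17.03 CPM in WT gastrocnemius, at 52.8, 72.0 and 68.5 CPM in HSA-LR and at 20.0, 30.1 and 26.5 CPM in treated mice. In quadriceps it stood at 13.3, 14.4 and 13.1 CPM in WT, at 57.1, 60.7 and 80.9 CPM in HSA-LR and at 20.5, 21.9 and 22.4 CPM in treated mice. In both muscles every HSA-LR mouse lay above every treated mouse, and every treated mouse above every WT mouse. The log2 FC in HSA-LR was 1.91 ± 0.16 (SE) in gastrocnemius (adjusted P = 0.000269) and 2.29 ± 0.13 in quadriceps (adjusted P = 5.25e-05). With treatment Fbp2 fell, by a log2 FC of -1.33 ± 0.16 in gastrocnemius (adjusted P = 0.00346) and -1.61 ± 0.13 in quadriceps (adjusted P = 0.000801). Treated mice remained above WT by 0.67 ± 0.13 in quadriceps (adjusted P = 0.0680), the only member called in that comparison, whereas the difference of 0.58 ± 0.16 in gastrocnemius missed the threshold (adjusted P = 0.200). The quadriceps call against WT was lost without any one of 7 libraries, the 3 WT mice, HSA-LR mouse 2 and the 3 treated mice (adjusted P = 0.110 to 0.222).

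Pfkfb1, which encodes a bifunctional enzyme that makes and degrades the phosphofructokinase activator fructose 2,6-bisphosphate, was also higher in HSA-LR mice. Its levels in gastrocnemius were 74.9, 91.5 and 86.7 CPM in WT, 132, 142 and 124 CPM in HSA-LR and 99.7, 127 and 106 CPM in treated mice. In quadriceps they were 84.2, 90.0 and 92.2 CPM in WT, 109.9, 111 and 124 CPM in HSA-LR and 103, 125 and 97.2 CPM in treated mice. Both other groups lay wholly above WT in both muscles, and treated and HSA-LR mice overlapped. Pfkfb1 rose by 0.64 ± 0.11 in HSA-LR gastrocnemius (adjusted P = 0.00857) and by 0.38 ± 0.11 in quadriceps (adjusted P = 0.0446), the latter lost without WT mouse 1 (adjusted P = 0.129) or HSA-LR mouse 3 (adjusted P = 0.117). Treated against HSA-LR was not called in gastrocnemius (log2 FC -0.25, adjusted P = 0.235).

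The phosphofructokinases themselves differed by isoform. Pfkm, the muscle isoform and by function the rate-controlling enzyme of glycolysis in muscle, measured 5312, 5224 and 4754 CPM in WT gastrocnemius, 4184, 4157 and 4078 CPM in HSA-LR and 4893, 5768 and 6327 CPM in treated mice. HSA-LR mice lay below both other groups. Its rise with treatment passed the test (log2 FC 0.46 ± 0.12, adjusted P = 0.0580), but its value in HSA-LR against WT, -0.31, did not (adjusted P = 0.134). The treatment call was lost without any one of the 3 HSA-LR mice or treated mouse 2 (adjusted P = 0.130 to 0.179). Pfkl, the liver isoform, showed 13.5, 15.6 and 18.02 CPM in WT gastrocnemius, 11.4, 12.2 and 11.9 CPM in HSA-LR and 17.9, 16.03 and 19.3 CPM in treated mice. It fell by 0.42 ± 0.12 in HSA-LR (adjusted P = 0.0523) and rose by 0.59 ± 0.12 with treatment (adjusted P = 0.0247). The fall was lost without any one of WT mice 2 and 3 and the 3 HSA-LR mice (adjusted P = 0.126 to 0.161), and the rise without HSA-LR mouse 1 (adjusted P = 0.113). The 7 adipocyte markers summed in these gastrocnemius libraries to 287 to 354 CPM in WT, 167 to 239 CPM in HSA-LR and 205 to 524 CPM in treated mice. In HSA-LR against WT edgeR called 0 of 7, beside 15.5% of all genes. There 3 had an unadjusted P under 0.05, beside 25.1% of all genes. The part of these markers in the values of Pfkl was not tested. Pfkp, the platelet isoform, was never called, with group means between 8.74 and 15.5 CPM.

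In quadriceps, Pfkl was 103, 21.4 and 27.3 CPM in WT and 39.7, 101 and 8.30 CPM in HSA-LR. Treated mice had 16.6, 18.4 and 12.7 CPM, each below every WT mouse, and no comparison was called. The 3 highest values came from the 3 libraries with high adipocyte transcripts. Pygl, the liver glycogen phosphorylase, had the same pattern, at 155, 20.8 and 22.0 CPM in WT, 69.9, 157 and 2.95 CPM in HSA-LR and 4.87, 3.90 and 3.16 CPM in treated mice. It passed the test in treated against HSA-LR (log2 FC -4.26 ± 1.28, adjusted P = 0.0787) although these groups overlapped. Without the 3 libraries, which leaves HSA-LR with 1 quadriceps library that is assumed to vary like the other groups, the log2 FC of Pygl turned to 0.42 (adjusted P = 0.526), and with the adipocyte sum as a covariate it was -1.11 (adjusted P = 0.124). The call was also lost without any one of HSA-LR mice 1 and 2 and the 3 treated mice (adjusted P = 0.159 to 0.211). Eno1, the widely expressed enolase, was 382, 138 and 116 CPM in WT quadriceps, 174, 345 and 92.2 CPM in HSA-LR and 115, 102 and 126 CPM in treated mice. Gpd1, Pgam1, Pfkp and Pygb were likewise higher in the libraries of WT mouse 1 and HSA-LR mouse 2 than in those of the other mice of their groups, except that HSA-LR mice 1 and 2 were close in Pygb, at 24.4 and 26.4 CPM. Of these, Gpd1, Pgam1, Pfkp, Pygb and Eno1 were not called in quadriceps. Phka2, described with the kinase subunits, also had its 3 highest quadriceps values in the 3 libraries. The part of adipocyte RNA in these values was not tested beyond these alternatives.

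**Figure D3:**
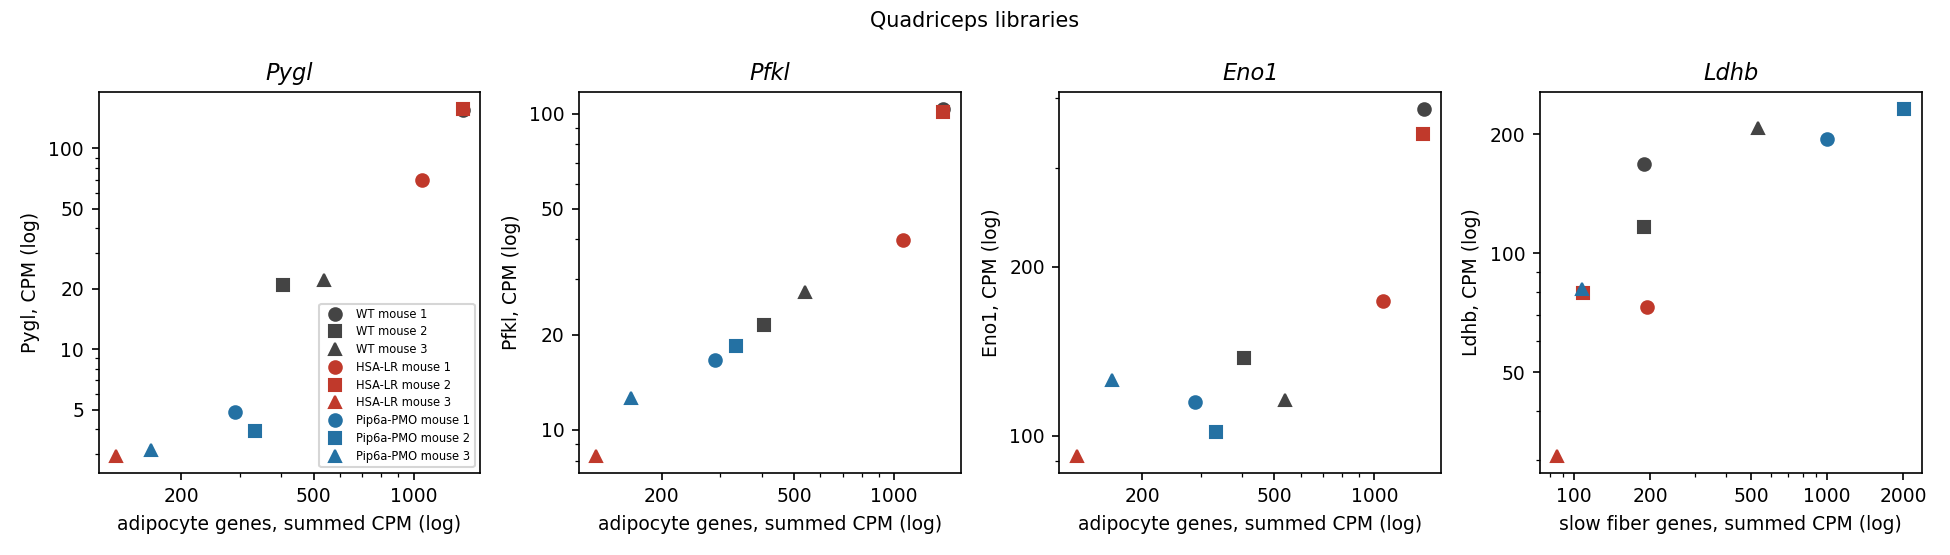
Levels of Pygl, Pfkl and Eno1 in each quadriceps library against the summed level of the 7 adipocyte markers, and of Ldhb against that of the 8 slow-fiber markers, in CPM on log axes; each point is 1 mouse, with color for the group and shape for the mouse number. The 3 libraries with adipocyte sums over 1000 CPM hold the 3 highest values of Pfkl, at 39.7, 101 and 103 CPM.

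Pfkfb3, the inducible counterpart of Pfkfb1, varied more between mice of a group than between groups. Its values were 698, 442 and 172 CPM in WT gastrocnemius, 237, 315 and 81.0 CPM in HSA-LR and 112, 142 and 464 CPM in treated mice. Quadriceps of the same mice gave 589, 602 and 157 CPM in WT, 320.1, 319.7 and 49.3 CPM in HSA-LR and 139, 114 and 663 CPM in treated mice. In each group the mouse that stood apart in gastrocnemius, WT mouse 3, HSA-LR mouse 3 and treated mouse 3, stood apart the same way in quadriceps. The log2 FC in HSA-LR was -1.07 ± 0.68 and -0.97 ± 0.86, and no comparison was called.

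**Figure D4:**
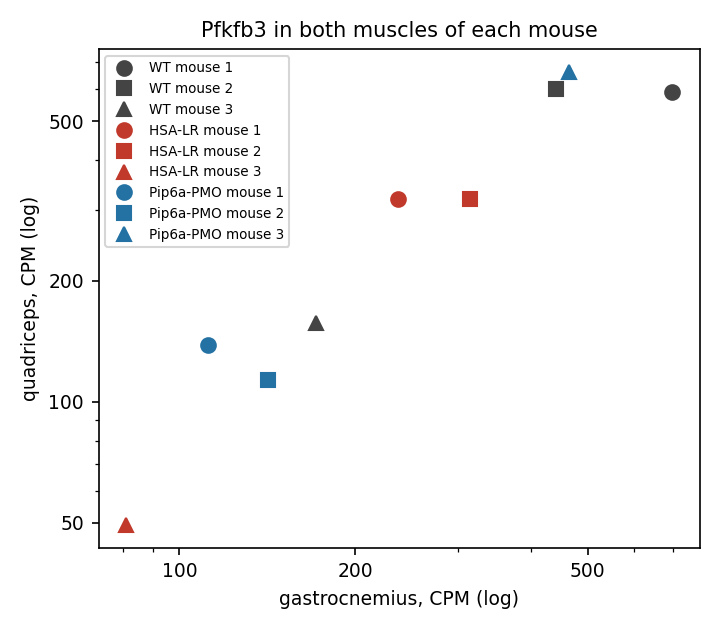
Pfkfb3 in gastrocnemius against quadriceps of the same mouse, in CPM on log axes, for the 9 mice, with color for the group and shape for the mouse number. WT and HSA-LR mouse 3 are the lowest of their groups in both muscles and treated mouse 3 is the highest of its group in both.

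The entry steps of glycolysis gave no call. Hk1 and Hk2, the hexokinases, and Gpi1, the isomerase of glucose 6-phosphate, had group means of 12.9 to 16.4, 355 to 450.1 and 2288 to 2830 CPM. For Gpi1 the log2 FC lay between 0.08 and 0.29 in all 6 comparisons of groups, with a smallest adjusted P of 0.418. Of the 4 genes from aldolase to glyceraldehyde 3-phosphate dehydrogenase, Aldoa, the muscle aldolase, Tpi1, the triose phosphate isomerase, and Gapdh were not called, with group means of 23483 to 28742, 2609 to 3117 and 706 to 909 CPM. Reads of genes with close pseudogene copies, such as Gapdh, Aldoa, Eno1 and Pgam1, may be split in counting, so their levels are less certain.

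Aldoc, the brain aldolase, was the member of this step that fell in HSA-LR mice, at very low levels. It measured 0.771, 0.782 and 0.339 CPM in WT gastrocnemius, 0.262, 0.315 and 0.177 CPM in HSA-LR and 0.507, 0.708 and 0.474 CPM in treated mice. Quadriceps gave 0.440, 0.772 and 0.523 CPM in WT, 0.334, 0.272 and 0.0836 CPM in HSA-LR and 0.474, 0.715 and 0.415 CPM in treated mice. HSA-LR mice lay below both other groups in each muscle. The log2 FC was -1.33 ± 0.37 in gastrocnemius (adjusted P = 0.0505) and -1.33 ± 0.46 in quadriceps (adjusted P = 0.0910), and the values with treatment, 1.17 and 1.22, missed the threshold (adjusted P = 0.104 and 0.137). The gastrocnemius call was lost without any one of WT mice 1 and 2 and HSA-LR mice 1 and 3 (adjusted P = 0.132 to 0.162). The quadriceps call was lost without any one of the 9 libraries other than that of HSA-LR mouse 1 (adjusted P = 0.101 to 0.229). With the count of the largest bin in place of the gene sum, the gastrocnemius log2 FC was -0.41 (adjusted P = 0.592).

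In the payoff phase, which yields ATP, Pgk1 rose in HSA-LR mice of both muscles. This phosphoglycerate kinase measured 915, 873 and 907 CPM in WT gastrocnemius, 1091, 1188 and 1167 CPM in HSA-LR and 951, 1149 and 1123 CPM in treated mice. In quadriceps it measured 895, 942 and 943 CPM in WT, 1046, 1098 and 1221 CPM in HSA-LR and 1080.4, 1052 and 1042 CPM in treated mice. All HSA-LR and all treated mice lay above WT in both muscles. The log2 FC in HSA-LR was 0.34 ± 0.098 (adjusted P = 0.0572) and 0.28 ± 0.083 (adjusted P = 0.0565), and treated against HSA-LR gave -0.09 and -0.08, neither called. The gastrocnemius call was lost without any one WT or HSA-LR mouse (adjusted P = 0.1002 to 0.183), and the quadriceps call without any one of the 3 WT mice and HSA-LR mice 2 and 3 (adjusted P = 0.106 to 0.166).

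Pgam2, the muscle phosphoglycerate mutase, stood at 1237, 1236 and 1312 CPM in WT gastrocnemius, 1102, 1119.6 and 1080.1 CPM in HSA-LR and 1282, 1396 and 1770.4 CPM in treated mice. Eno1 stood at 114, 110.4 and 108 CPM in WT gastrocnemius, 94.5, 91.4 and 85.9 CPM in HSA-LR and 109, 109 and 159.9 CPM in treated mice. Both genes rose with treatment in this muscle (log2 FC 0.44 ± 0.12, adjusted P = 0.0728, and 0.48 ± 0.14, adjusted P = 0.0818), with HSA-LR mice below every other mouse. The Pgam2 call was lost without any one of WT mouse 2, the 3 HSA-LR mice and treated mouse 2 (adjusted P = 0.111 to 0.209). For Eno1 it was lost without any one of WT mice 1 and 2 and the 3 HSA-LR mice (adjusted P = 0.105 to 0.210). Treated mouse 3, the library with fewer counts in the upstream part of genes, held the highest value of both. With this coverage as a covariate the log2 FC was 0.27 for Pgam2 (adjusted P = 0.1599) and 0.23 for Eno1 (adjusted P = 0.1504). The gastrocnemius rises of Gpd1, Pygm and Pfkm were also lost in that fit, at 0.47, 0.47 and 0.37 (adjusted P = 0.195, 0.143 and 0.135). Eno3, the muscle enolase, with group means of 8615 to 9771 CPM, and Pgam1, at 9.08 to 19.8 CPM, were never called.

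Both glycerol phosphate dehydrogenases fell in HSA-LR gastrocnemius. Gpd1 works in the cytosol and Gpd2 in the mitochondrial inner membrane, and between them they carry reducing equivalents from glycolysis to the respiratory chain. Gpd2 was 221, 197 and 238 CPM in WT gastrocnemius, 103, 103 and 102 CPM in HSA-LR and 173, 217 and 194 CPM in treated mice. It was 249.6, 245 and 241 CPM in WT quadriceps, 143, 186 and 148 CPM in HSA-LR and 216, 175 and 249 CPM in treated mice. In gastrocnemius HSA-LR mice lay at about the same level as each other and below all other mice, with a mean of 102.7 ± 0.487 CPM (SD, n = 3), while in quadriceps treated and HSA-LR mice overlapped. Gpd2 fell by 1.10 ± 0.10 (adjusted P = 0.000408) in HSA-LR gastrocnemius and, with a log2 FC of -0.62 ± 0.14, in quadriceps (adjusted P = 0.0214), and rose by 0.93 ± 0.10 with treatment in gastrocnemius (adjusted P = 0.00267). In treated quadriceps the log2 FC of 0.42 ± 0.14 missed the threshold (adjusted P = 0.104). With the largest bin alone, the quadriceps value in HSA-LR was -0.39 (adjusted P = 0.199).

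Gpd1 was 847, 736 and 592 CPM in WT gastrocnemius, 426, 576 and 455 CPM in HSA-LR and 628, 723 and 807 CPM in treated mice, with HSA-LR below the other groups. Its log2 FC was -0.59 ± 0.16 in HSA-LR (adjusted P = 0.0520) and 0.58 ± 0.16 with treatment (adjusted P = 0.0782). The former call was lost without any one of WT mice 1 and 2 and HSA-LR mice 1 and 3 (adjusted P = 0.130 to 0.174), and the latter without any one of WT mouse 2, HSA-LR mice 1 and 3 and treated mice 2 and 3 (adjusted P = 0.118 to 0.253). The adipocyte sums given beside Pfkl were lower in the same HSA-LR gastrocnemius libraries, and their part in Gpd1 was not tested. Quadriceps levels of Gpd1 overlapped in all comparisons, at 1393, 875 and 727 CPM in WT, 768, 1222 and 603 CPM in HSA-LR and 726, 567 and 847 CPM in treated mice.

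Ldhb, the heart-type subunit of lactate dehydrogenase, fell in HSA-LR quadriceps and rose with treatment. It was 168, 117 and 208 CPM in WT quadriceps, 73.4, 79.6 and 30.8 CPM in HSA-LR and 195, 232 and 81.3 CPM in treated mice, with a log2 FC of -1.42 ± 0.44 against WT (adjusted P = 0.0643) and, with treatment, 1.47 ± 0.44 (adjusted P = 0.0788). Treated mouse 3 lay just above the highest HSA-LR mouse. The 8 slow-fiber markers summed in the same libraries to 189, 189 and 531 CPM in WT and 195, 108 and 85.6 CPM in HSA-LR. In treated mice they summed to 996, 2020.3 and 107 CPM. Of the 8, 6 rose in treated against HSA-LR, beside 13.8% of all genes called. In HSA-LR against WT 1 fell, beside 20.3%. In gastrocnemius, where these sums ranged from 1832 to 14381 CPM, Ldhb was 82.4, 259 and 323 CPM in WT, 205, 122 and 161 CPM in HSA-LR and 445, 196 and 115 CPM in treated mice, and was not called. The part of slow fibers in the quadriceps values was not tested. The fall in quadriceps was lost without any one of WT mice 1 and 3 and HSA-LR mice 1 and 3 (adjusted P = 0.116 to 0.168), and the rise without any one of the 3 HSA-LR mice and treated mice 1 and 2 (adjusted P = 0.117 to 0.211). Ldha, the muscle-type subunit, with group means of 3986 to 5058 CPM, was not called (smallest adjusted P = 0.148), although HSA-LR gastrocnemius lay below both other groups in every mouse.

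Glycogen breakdown was represented by 3 phosphorylases. Pygm, the muscle isoform, whose loss causes McArdle disease, measured 12721, 11456 and 10195 CPM in WT gastrocnemius, 8365, 9471 and 8813 CPM in HSA-LR and 10931, 13569 and 14844 CPM in treated mice. In quadriceps it measured 11511, 12298 and 10432 CPM in WT, 8658, 7771 and 8972 CPM in HSA-LR and 10864, 10486 and 13311 CPM in treated mice. HSA-LR mice were lowest in both muscles with no overlap. Pygm fell by 0.43 ± 0.12 in HSA-LR quadriceps (adjusted P = 0.0503), and rose with treatment by 0.45 ± 0.12 in quadriceps (adjusted P = 0.0614) and 0.57 ± 0.15 in gastrocnemius (adjusted P = 0.0576). The gastrocnemius value in HSA-LR, -0.38, was not called (adjusted P = 0.1397). Each call depended on single libraries. In gastrocnemius the rise was lost without any one of the 3 HSA-LR mice and treated mice 2 and 3 (adjusted P = 0.106 to 0.194). In quadriceps the fall was lost without any one of WT mice 1 and 2 and HSA-LR mice 1 and 2 (adjusted P = 0.116 to 0.136), and the rise without any one of HSA-LR mice 1 and 2 and treated mice 1 and 3 (adjusted P = 0.123 to 0.174). Pygb, the brain isoform, was never called.

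Some markers of muscle fibers and of other cell types were called in the same comparisons. Over all genes, HSA-LR against WT called 15.5% in gastrocnemius and 20.3% in quadriceps, and treatment called 10% and 13.8%. In quadriceps 6 of the 12 fast-fiber markers fell in HSA-LR and 4 rose with treatment, and their summed level ranged from 235923 to 263766 CPM in WT, 176857 to 211424 CPM in HSA-LR and 222671 to 284675 CPM in treated mice. In gastrocnemius 1 rose and 1 fell in HSA-LR, 6 rose and 1 fell with treatment, and the sums were 214164 to 259572, 186746 to 200113 and 214979 to 319391 CPM. In HSA-LR quadriceps 6 of 8 macrophage markers also rose, from sums of 48.1 to 68.6 CPM in WT to 85.0 to 113 CPM, and the same number fell with treatment, to 45.1 to 67.5 CPM. In quadriceps 4 of 5 Schwann cell markers fell in HSA-LR and 3 rose with treatment, with sums of 58.2 to 75.0 CPM in WT, 25.5 to 40.6 CPM in HSA-LR and 39.4 to 66.0 CPM in treated mice. There 2 of 4 endothelial markers fell in HSA-LR, with sums of 193 to 247 CPM in WT and 127 to 163 CPM in HSA-LR, and 2 of 3 fibroblast markers rose, from 292 to 374 CPM to 454 to 486 CPM, 1 of which fell with treatment. In gastrocnemius 1 of 3 fibroblast markers and 1 of 8 macrophage markers rose in HSA-LR, and 1 and 2 fell with treatment. These few calls are not read as a change of the cell types. The 5 erythroid markers gave 0 calls in edgeR. In HSA-LR gastrocnemius 4 of them had an unadjusted P under 0.05, beside 25.1% of all genes. Their gastrocnemius sums were 775 to 3867 CPM in WT, 507 to 678 CPM in HSA-LR and 905 to 3152 CPM in treated mice. None of the adipocyte, fiber or macrophage markers was at 0 in any library, and the lowest of these was the slow-fiber gene Myh7b, at 0.452 CPM in quadriceps of HSA-LR mouse 3. The part of these markers in the members' values was not tested.

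**Figure D5:**
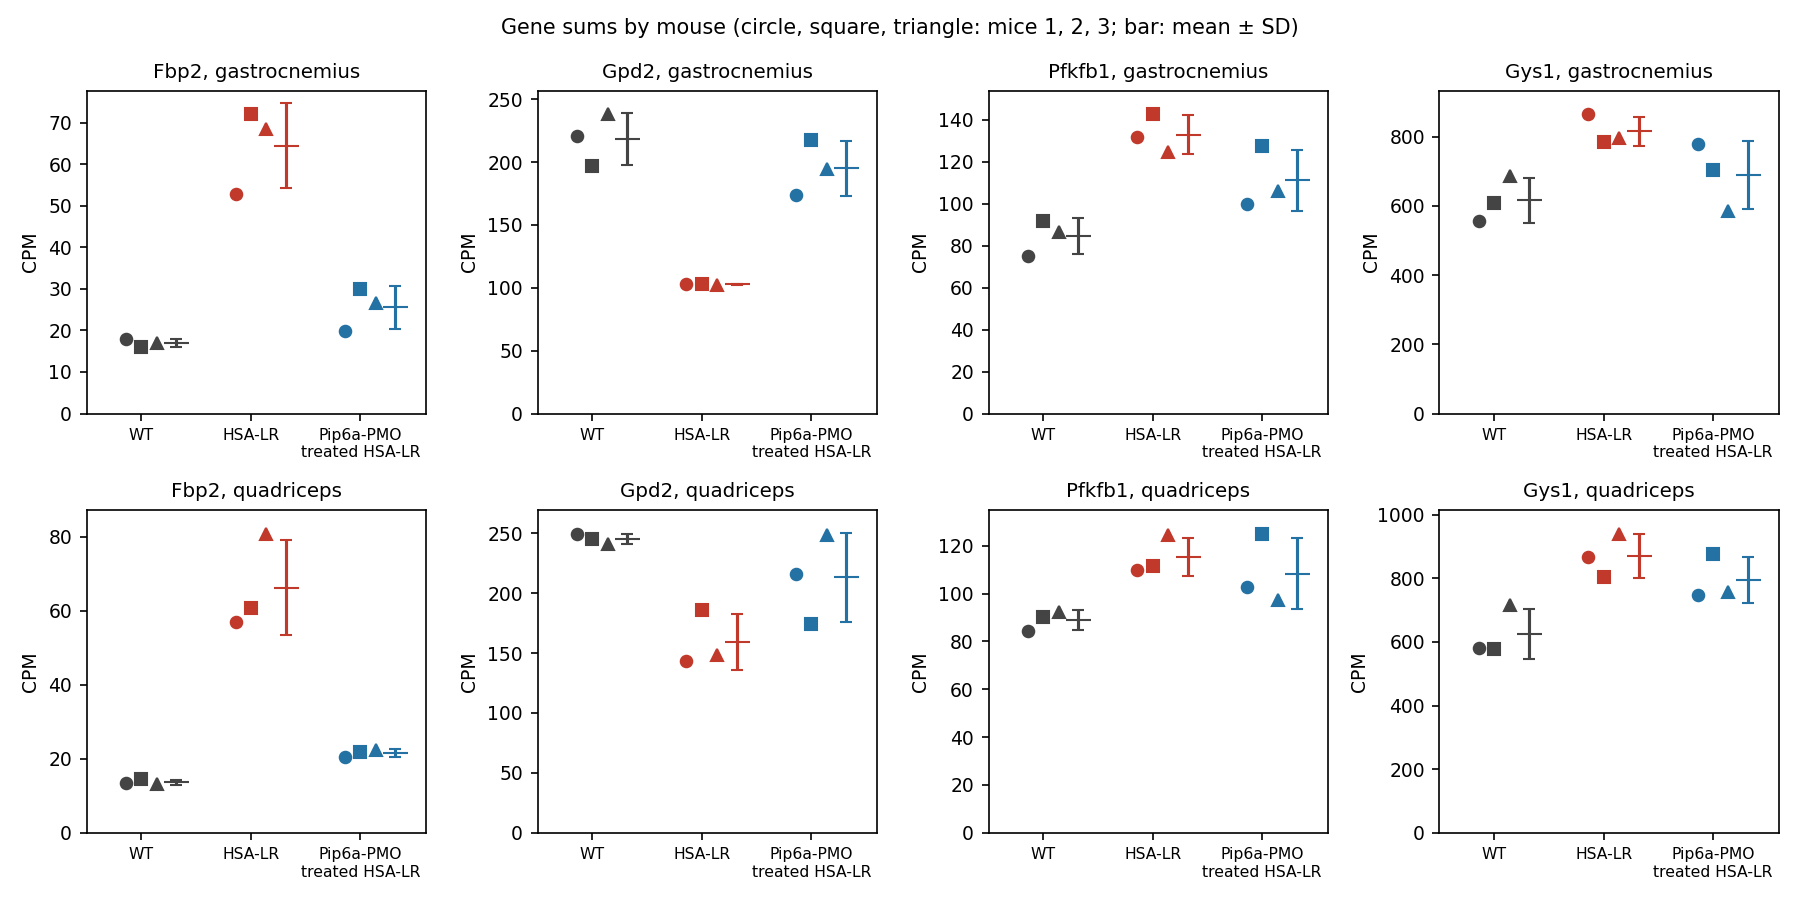
Levels of Fbp2, Gpd2, Pfkfb1 and Gys1 in every mouse, in CPM on axes that start at 0, by group and muscle; circles, squares and triangles are mice 1, 2 and 3, and bars are the group mean ± SD (n = 3). Fbp2 is high in HSA-LR mice of both muscles, at 52.8 to 80.9 CPM, and Gpd2 is low in HSA-LR gastrocnemius, at 102 to 103 CPM.

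Of the other 4 phosphorylase kinase subunits, 1 was called. Phka2, the liver form of the alpha subunit, was 21.8, 14.7 and 14.7 CPM in WT quadriceps, 20.4, 26.0 and 14.6 CPM in HSA-LR and 13.4, 12.9 and 11.3 CPM in treated mice. It fell with treatment (log2 FC -0.69 ± 0.22, adjusted P = 0.0902), and the call was lost without any one of WT mouse 2, HSA-LR mice 1 and 2 and the 3 treated mice (adjusted P = 0.102 to 0.261). The highest Phka2 values, 21.8, 20.4 and 26.0 CPM, belong to the 3 libraries with high adipocyte transcripts, and without them the log2 FC was -0.23 (adjusted P = 0.556). With the largest bin in place of the gene sum it was -0.54 (adjusted P = 0.307). In gastrocnemius Phka2 was 12.2, 12.1 and 11.9 CPM in WT and 13.8, 16.2 and 15.6 CPM in HSA-LR. Treated mice had 10.9, 12.5 and 14.2 CPM there, and no comparison was called. Every HSA-LR mouse lay above every WT mouse, with a log2 FC of 0.32 ± 0.11 that missed the threshold (adjusted P = 0.103). The beta subunit gene Phkb, at 516 to 647 CPM, and the catalytic gamma subunit genes Phkg1, at 507 to 656 CPM, and Phkg2, at 10.5 to 13.3 CPM, were never called.

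On the side of glycogen synthesis, Gys1, the muscle glycogen synthase, rose in HSA-LR mice. It was 557, 608 and 686 CPM in WT gastrocnemius, 865, 786 and 797 CPM in HSA-LR and 779, 703 and 585 CPM in treated mice. In quadriceps it was 580.3, 578 and 717 CPM in WT, 867, 804 and 940.4 CPM in HSA-LR and 747, 878 and 757 CPM in treated mice. HSA-LR lay above WT with no overlap in both muscles, and log2 FC was 0.39 ± 0.12 (adjusted P = 0.0820) and 0.48 ± 0.12 (adjusted P = 0.0260). Treated against HSA-LR was not called (-0.24, adjusted P = 0.305, and -0.13, adjusted P = 0.506). The gastrocnemius call was lost without any one of WT mice 1 and 2, the 3 HSA-LR mice and treated mouse 2 (adjusted P = 0.106 to 0.246). Ugp2, which makes UDP-glucose, Gyg, the glycogenin that primes the particle, and Gbe1, the branching enzyme, were not called, with group means of 696 to 839, 316 to 383 and 78.4 to 114 CPM.

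Of the 2 subunits that bring protein phosphatase 1 to glycogen, Ppp1r3c rose with treatment in both muscles. It was 472, 245 and 379 CPM in WT gastrocnemius, 148, 244 and 176 CPM in HSA-LR and 656, 669 and 289 CPM in treated mice. Quadriceps gave 325, 237 and 415 CPM in WT, 157, 155 and 177 CPM in HSA-LR and 620.5, 461 and 218 CPM in treated mice. HSA-LR mice were below every other mouse in both muscles, in gastrocnemius by a margin of only 244 against 245 CPM. The rise with treatment was 1.52 ± 0.35 (adjusted P = 0.0404) in gastrocnemius and 1.41 ± 0.34 (adjusted P = 0.0429) in quadriceps. The fall in HSA-LR passed the test in quadriceps (log2 FC -0.996 ± 0.34, adjusted P = 0.0845) and not in gastrocnemius (-0.96, adjusted P = 0.115). These calls were lost without HSA-LR mice 1 or 3 or treated mouse 2 in gastrocnemius (adjusted P = 0.110 to 0.154), without HSA-LR mice 1 or 2 or treated mice 1 or 2 for the rise in quadriceps (adjusted P = 0.107 to 0.135), and without any one of WT mice 1 and 3, the 3 HSA-LR mice and treated mouse 2 for the fall (adjusted P = 0.107 to 0.225). Ppp1r3a, the striated-muscle subunit, had group means of 148 to 182 CPM and the log2 FC lay between -0.07 and 0.15.

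Over the 19 members that were never called, log2 FC ranged from -1.07 to 0.37 in HSA-LR gastrocnemius and from -0.97 to 0.28 in HSA-LR quadriceps, with smallest adjusted P of 0.180 and 0.191. With treatment it ranged from -0.48 to 0.36 and from -1.07 to 0.42, with smallest adjusted P of 0.148 and 0.185.

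In quadriceps, single calls also moved without the 3 libraries with high adipocyte transcripts, in a fit with 1 HSA-LR library. Fbp2 kept its calls at 2.56 in HSA-LR (adjusted P = 0.00361) and -1.92 with treatment (adjusted P = 0.0117), but not the call of treated mice against WT (adjusted P = 0.135). Aldoc gave -2.93 in HSA-LR (adjusted P = 0.0653). Pfkl and Pygl were also called in HSA-LR against WT in that fit, at -1.55 and -2.85 (adjusted P = 0.0477 and 0.0144). Other calls were lost. In HSA-LR these were Gpd2, Gys1, Pfkfb1, Pgk1, Pygm, Ppp1r3c and Ldhb (adjusted P = 0.1416 to 0.511), with Ldhb at -2.39. With treatment they were Pygl, Phka1, Phka2, Pygm, Ppp1r3c and Ldhb (adjusted P = 0.2285 to 0.639), with Ldhb at 2.44.

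No member was called for a different change in the muscles, in a test that called no gene. In a fit of all 18 libraries, the gastrocnemius change minus the quadriceps change was called by edgeR for 0 of 36 members in HSA-LR against WT and for 0 in treated against HSA-LR, beside 0% of 16167 genes in each. At an unadjusted P under 0.05 there was 1 member in the former, Gpd2 (difference -0.47, unadjusted P = 0.0189), beside 4.39% of all genes. There were 5 in the latter, Pfkl, Eno1, Gpd1, Gpd2 and Pygl, beside 7.86% of all genes, with Gpd2 at 0.50 (unadjusted P = 0.0121) and Pygl at 4.90 (unadjusted P = 0.00378). WT gastrocnemius against WT quadriceps called 0 of 36 members in edgeR, beside 0.297% of all genes, with 5 (Pfkl, Pgam1, Eno1, Pygl and Phka2) at an unadjusted P under 0.05, beside 8.89% of all genes. Both muscles came from the same mice. With the mouse as a block, the calls over all genes were 0.0309%, 0% and 1.89% in these 3 tests, with 0 members called and 3, 4 and 4 members at an unadjusted P under 0.05, beside 8.56%, 14% and 12.8% of all genes.

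Beyond exon 19 of Phka1, few exon bins of the members stood out. A bin is a stretch of annotated exon whose counts are tested against the rest of its gene. The files hold 971 bins of the 36 members, of which 814 in gastrocnemius and 817 in quadriceps were tested. In gastrocnemius, HSA-LR against WT called 8 bins (0.983%), treated against HSA-LR 7 (0.86%) and treated against WT 3 (0.369%), beside 0.819%, 0.309% and 0.0654% of all 172719 bins. The quadriceps counts were 3 (0.367%), 4 (0.49%) and 1 (0.122%), beside 0.284%, 0.168% and 0.0353% of all 172858 bins. The 26 calls fell in 17 bins of 11 genes. Apart from Phka1 there were 22 calls in 16 bins, 13 of the calls with overlapping groups, and natural-log values of 0.49 to 1.60 in size. How often groups overlapped among the calls of all bins was not counted.

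The bins with groups that did not overlap included stretches annotated only in retained-intron transcripts. Phkg1 bin 018, 1382 bases at chr5:129877549-129878930 on the minus strand, took 0.0878%, 0.102% and 0.0819% of Phkg1 counts in WT gastrocnemius, 0.195%, 0.199% and 0.248% in HSA-LR and 0.0854%, 0.132% and 0.0798% in treated mice. It rose by 0.85 on the natural-log scale in HSA-LR (adjusted P = 9.20e-05) and fell by 0.76 with treatment (adjusted P = 0.00248), the latter lost without HSA-LR mouse 3 (adjusted P = 0.117) or with coverage as a covariate (adjusted P = 0.160). In quadriceps its shares overlapped, from 0.0456% to 0.293%, and were not called. Gpi1 bin 025, 747 bases at chr7:34215209-34215955 on the minus strand, took 0.0766%, 0.0888% and 0.0155% of Gpi1 counts in WT gastrocnemius, 0.112%, 0.185% and 0.146% in HSA-LR and 0.0542%, 0.153% and 0.0746% in treated mice. Its natural-log change in HSA-LR was 0.88 (adjusted P = 2.03e-06). Gpi1 bins 024 and 007, of only 35 and 4 bases, are held only by transcripts annotated for nonsense-mediated decay. They rose there too, by 0.79 (adjusted P = 0.00127) and 0.77 (adjusted P = 0.0424). Reads that reach into a neighbouring bin are counted in both, so bins this short say little about these transcripts. Bin 024 lost its call without WT mouse 3 (adjusted P = 0.314) or HSA-LR mouse 2 (adjusted P = 0.216), and bin 007 without any one of WT mice 1 and 2 and HSA-LR mice 2 and 3 (adjusted P = 0.119 to 0.989).

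Eno3 bin 010, 50 bases at chr11:70658339-70658388 in a retained intron, was called in 4 comparisons, with overlapping groups in each. Its share never exceeded 0.421% of Eno3 counts, which treated mouse 2 reached in quadriceps beside 0.0061% and 0.0385% in the other treated mice. Without that library the natural-log value against WT in quadriceps turned from 1.60 (adjusted P = 8.21e-06) to -0.22. The gastrocnemius values were 1.13 with treatment (adjusted P = 1.74e-07) and 0.99 in treated mice against WT (adjusted P = 2.07e-05), the latter lost without WT mouse 1 (adjusted P = 0.236) or treated mouse 2 (adjusted P = 0.664). The value of 1.15 in HSA-LR quadriceps (adjusted P = 0.00281) was lost without any one of WT mice 1 and 2 and HSA-LR mice 1 and 2 (adjusted P = 0.107 to 1.0).

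The remaining bins with the smallest P were calls of Pgk1, Tpi1, Aldoa, Ugp2 and Gapdh. Pgk1 bin 015, 38 non-coding bases of a coding transcript, gave 1.32 in treated gastrocnemius against WT (adjusted P = 2.81e-06) and 0.89 against HSA-LR (adjusted P = 0.00313), with overlapping groups, and both were lost without treated mouse 3 (adjusted P = 0.583 and 1.0), the library with fewer counts in the upstream part of genes. With coverage as a covariate the latter was 0.07 (adjusted P = 1.0). Tpi1 bin 005 gave 1.02 with treatment in gastrocnemius (adjusted P = 0.00461), lost without HSA-LR mouse 3 (adjusted P = 0.212) or treated mouse 2 (adjusted P = 0.421). Gapdh bin 037 gave -1.25 with treatment in gastrocnemius (adjusted P = 0.0189), lost without HSA-LR mice 1 or 3 or treated mouse 3 (adjusted P = 0.122 to 0.533) and with the coverage covariate (adjusted P = 1.0). Aldoa bin 005 gave 0.81 in treated gastrocnemius against WT (adjusted P = 0.0160) and -0.93 with treatment in quadriceps (adjusted P = 0.00816), and Aldoa bin 011 gave 0.86 in HSA-LR quadriceps (adjusted P = 0.0147). Ugp2 bin 006 gave -1.30 with treatment in quadriceps (adjusted P = 0.0154). The calls of Aldoa bin 005 were lost without any one of 5 and 3 libraries (adjusted P = 0.117 to 0.595, and 0.158 to 1.0), that of Aldoa bin 011 without any one of 4 (adjusted P = 0.176 to 1.0) and that of Ugp2 bin 006 without any one of 3 (adjusted P = 0.126 to 1.0).

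Of 62 further genes of glucose use and glycogen handling, 58 were analysed and 52 tested. HSA-LR against WT called 10 (19.2%) in gastrocnemius, 3 up and 7 down, and 8 (15.4%) in quadriceps, 5 up and 3 down. Treatment called 5 (9.62%), 4 up and 1 down, and 9 (17.3%), 4 up and 5 down. Treated against WT called 0 in gastrocnemius with edgeR, with 1 at an unadjusted P under 0.05, and 1 (1.92%) in quadriceps, Pfkfb4. The percentages over all genes in these comparisons are those given above.

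Epm2a, which encodes laforin, a phosphatase that removes phosphate from glycogen, was lower in every HSA-LR mouse than in all other mice, in both muscles. It was 71.6, 69.5 and 68.2 CPM in WT gastrocnemius, 42.6, 38.7 and 41.9 CPM in HSA-LR and 61.6, 66.7 and 58.9 CPM in treated mice. Quadriceps gave 68.3, 77.2 and 72.0 CPM in WT, 40.4, 36.0 and 48.6 CPM in HSA-LR and 71.2, 67.3 and 83.1 CPM in treated mice. The log2 FC was -0.77 ± 0.077 (adjusted P = 0.000475) and -0.80 ± 0.13 (adjusted P = 0.00462) in HSA-LR, and 0.61 (adjusted P = 0.00375) and 0.83 (adjusted P = 0.00865) with treatment, and leaving out any one library kept all 4 calls. Without the 3 libraries with high adipocyte transcripts both quadriceps calls were lost, at -0.61 (adjusted P = 0.1345) and 0.60 (adjusted P = 0.229), as were those of Pdk3 with treatment and of Gsk3a and Eno2, described next (adjusted P = 0.1555 to 0.586).

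Pdk3, a kinase that turns off pyruvate dehydrogenase, was 1.67, 1.01 and 0.942 CPM in WT gastrocnemius, 3.49, 2.96 and 3.10 CPM in HSA-LR and 1.72, 1.12 and 2.24 CPM in treated mice. In quadriceps it was 1.25, 1.12 and 0.754 CPM in WT, 3.78, 3.44 and 4.36 CPM in HSA-LR and 2.06, 1.89 and 1.80 CPM in treated mice. HSA-LR mice lay above all others in both muscles. Pdk3 rose by 1.39 ± 0.29 (adjusted P = 0.0159) and 1.89 ± 0.20 (adjusted P = 0.000706) in HSA-LR and fell with treatment, by a log2 FC of -0.91 in gastrocnemius (adjusted P = 0.0996) and -1.01 in quadriceps (adjusted P = 0.0205). The gastrocnemius fall was lost without any one of 6 libraries, WT mouse 2, the 3 HSA-LR mice and treated mice 1 and 2 (adjusted P = 0.130 to 0.266).

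Gsk3a, a kinase that inactivates glycogen synthase, was 131, 135 and 133 CPM in WT gastrocnemius, 109, 104 and 108 CPM in HSA-LR and 129.5, 136 and 139 CPM in treated mice. It was 131, 126 and 140.1 CPM in WT quadriceps, 103, 102 and 107 CPM in HSA-LR and 119, 120.2 and 128 CPM in treated mice. The groups were tight, and Gsk3a fell in HSA-LR, by a log2 FC of -0.33 ± 0.067 in gastrocnemius (adjusted P = 0.0161) and -0.35 ± 0.072 in quadriceps (adjusted P = 0.0143), and rose by 0.34 (adjusted P = 0.0244) and 0.24 (adjusted P = 0.0751) with treatment. The rises were lost without HSA-LR mice 1 or 2 in gastrocnemius (adjusted P = 0.101 and 0.116) and without any one of HSA-LR mice 1 and 2 and the 3 treated mice in quadriceps (adjusted P = 0.133 to 0.201).

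Pfkfb4, another of the bifunctional enzymes, was 63.1, 61.9 and 57.3 CPM in WT quadriceps, 101, 81.9 and 97.6 CPM in HSA-LR and 94.7, 85.7 and 75.6 CPM in treated mice. It rose by 0.63 ± 0.11 in HSA-LR (adjusted P = 0.00676) and stood 0.50 higher in treated mice than in WT (adjusted P = 0.0941), a call lost without any one of the 3 WT mice, HSA-LR mice 1 and 2 and treated mice 1 and 2 (adjusted P = 0.110 to 0.326). Eno2, the neuronal enolase, was 2.15, 1.94 and 3.22 CPM in WT quadriceps, 4.63, 5.17 and 4.83 CPM in HSA-LR and 2.76, 2.99 and 2.31 CPM in treated mice. It rose by 1.001 ± 0.20 in HSA-LR (adjusted P = 0.0126) and fell by 0.86 with treatment (adjusted P = 0.0391), the latter lost without HSA-LR mice 1 or 2 or treated mouse 1 (adjusted P = 0.101 to 0.115). Me1, malic enzyme, was 287, 245 and 177 CPM in WT gastrocnemius, 123, 137 and 133 CPM in HSA-LR and 169.9, 198 and 241 CPM in treated mice. It fell by 0.86 ± 0.18 in HSA-LR (adjusted P = 0.0167) and rose by 0.64 with treatment (adjusted P = 0.0743), the latter lost without any one of WT mouse 2, the 3 HSA-LR mice and treated mice 2 and 3 (adjusted P = 0.111 to 0.227) and with coverage as a covariate (0.48, adjusted P = 0.204). In quadriceps Me1 was 408, 316 and 200.03 CPM in WT, 196, 253 and 143 CPM in HSA-LR and 162, 177 and 241 CPM in treated mice, with log2 FC of -0.64 in HSA-LR, -0.03 with treatment and -0.67 in treated mice against WT, none called (adjusted P = 0.176, 0.959 and 0.383). The adipocyte sums were lower in HSA-LR gastrocnemius, as given beside Pfkl, and their part in Me1 was not tested.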

How the data were processed

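Total RNA was extracted with TRIzol and DNase, and polyA-selected libraries were made with the Illumina TruSeq Stranded mRNA kit from 2 muscles of 9 mice. The deposited counts are whole-number counts per exon bin made by the authors, and the submitters' processing notes name CASAVA, HISAT, featureCounts 1.5.0 and GRCm38; the strand setting of the counting is not given in the sources used here. Reads that reach into more than 1 bin were counted in each of them, and the rows that name no gene, 2.82% to 4.14% of counts, were left out. Counts of 391858 bins were summed to 46725 genes, of which 46520 had a symbol.

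Genes were filtered with filterByExpr (minimum count 10, minimum total 15), scaled by TMM and compared with the quasi-likelihood test (glmQLFit, glmQLFTest) of edgeR 4.0.16 in R 4.3.3, fitting each muscle's 9 libraries jointly. Bins were tested with diffSpliceDGE, whose values for bins are on the natural-log scale, whereas the values for genes are log2 FC. P-values were adjusted by Benjamini-Hochberg over all genes or bins, and adjusted P under 0.1 was called, as in the study's methods. P-values of genes rest on the spread between these mice. Those of bins pool the spread over the bins of a gene, which come from the same libraries. Bin P-values therefore do not reflect the spread between the 3 mice of a group alone. CPM used TMM library sizes of all 18 libraries, is not corrected for length and is not compared between genes. Shares are percentages of a gene's counts. The scripts were tested on simulated data. DESeq2 1.42.0 and voom of limma 3.58.1 served as alternatives. Summaries and figures used Python 3.11.15, pandas 2.3.3, numpy 2.4.6 and matplotlib 3.10.9. Sequence and exon structure came from the GRCm38 reference annotation.

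Samples were grouped by their titles. The muscles of a mouse deviated together (median correlation 0.293, range 0.142 to 0.680, 9 pairs). Different mice of a group gave a median of -0.129. Deviations were taken from the mean of each group, so a positive value for the same mouse pushes those of different mice below 0. The medians are therefore not independent. Mice with the same number in different groups did not deviate together (-0.37 to 0.36), so that the number does not pair the groups. All analysed members are named, with each mouse's value for those called. The 17 called members were ranked by their smallest P in HSA-LR against WT alone. The first 12 are described in more detail, and the calls of the other 5 are given with their statistics. Of the further genes the 6 with the smallest P, and of the bins the 10 with the smallest P besides Phka1 bin 017, are described. The members and lists were chosen with earlier results of these data known. Of the 37 genes, 1 was not analysed here. Alternatives changed the normalization, the filter, the libraries, the fit, the tool and the gene sum, and 3 that used adipocyte transcripts or coverage were added after seeing the data.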

Additional observations from a re-analysis of the deposited data

How the results depend on the processing

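Phka1 bin 017 kept its direction and its side of the threshold in every alternative run. Leaving out each library in turn gave -2.25 to -2.12, 1.73 to 1.92 and -0.42 to -0.26 in gastrocnemius for HSA-LR against WT, treated against HSA-LR and treated against WT, and -1.92 to -1.82, 1.44 to 1.55 and -0.45 to -0.33 in quadriceps. With the mouse number as a replicate block the values were -2.16, 1.81 and -0.35, and -1.88, 1.48 and -0.40. Fits with limma's voom with diffSplice gave -3.21, 2.74 and -0.47, and -2.75, 2.13 and -0.62. These are on the log2 scale and those of edgeR on the natural-log scale, so their sizes are not compared directly. Of 628 values of called members under alternatives, 627 kept their direction and 161 lost the call. The exception was Pygl in treated against HSA-LR quadriceps, at 0.42 without the 3 libraries with high adipocyte transcripts. Eno3 bin 010 in treated quadriceps against WT ranged from -0.22, without treated mouse 2, to 2.35 over all alternatives run. That range mixes the natural-log values of edgeR with the log2 values of limma.

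Numbers of members called, in the same order of comparisons, changed by over 1.5 times as follows. In gastrocnemius the replicate block gave 5 and 5 (treated against WT stayed at 0), beside 11.6%, 5.89% and 0.403% of all genes, the fit of the 2 groups compared gave 13 in HSA-LR against WT (22%), coverage as a covariate gave 4 with treatment (8.24%), and DESeq2 gave 2 in treated against WT (3.39%). In quadriceps the block and the adipocyte covariate gave 0 (0.578% and 0.527% of all genes) and DESeq2 2 (4.81%) in treated against WT, DESeq2 gave 11 with treatment (20.3%), and the analysis without the 3 libraries gave 4 and 1 (4.72% and 0.678%). Leaving out each library gave 3 to 13, 2 to 12 and 0 to 0 in gastrocnemius, beside 8.52% to 22.1%, 2.69% to 11.8% and 0.295% to 1.22% of all genes, and 3 to 8, 1 to 11 and 0 to 2 in quadriceps, beside 12.9% to 21.2%, 4.36% to 17.5% and 0.314% to 1.93%. Libraries left in a group of 2 were assumed to vary like the other groups.

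Among the further pathway genes, treatment in gastrocnemius called 2 with the block and 8 with DESeq2, beside 5.89% and 15.6% of all genes. In quadriceps treatment called 16 with DESeq2 and 1 without the 3 libraries, beside 20.3% and 0.678% of all genes. Treated against WT in quadriceps called 2 with upper-quartile scaling and 4 with DESeq2, beside 1.39% and 4.81% of all genes. It called 0 with the block, the fit of 2 groups, the largest bin, no filter, DESeq2 size factors, the adipocyte covariate or without the 3 libraries, beside 0.247% to 1.34% of all genes. Leaving out each library gave 5 to 11, 1 to 7 and 0 to 1, and 6 to 12, 2 to 19 and 0 to 3, beside the shares of all genes given for the members in the same fits. For member bins the coverage covariate gave 4 with treatment and 5 against WT in gastrocnemius, beside 0.267% and 0.0776% of all bins. In quadriceps the block gave 2 with treatment (0.253%) and limma's voom with diffSplice 2 against WT (0.055%). Leaving out each library gave 5 to 9, 4 to 9 and 1 to 4 member bins in gastrocnemius. The shares of all bins there were 0.386% to about 1%, 0.153% to 0.404% and 0.0529% to 0.0697%. In quadriceps leaving out each library gave 1 to 6, 2 to 8 and 0 to 4. The shares of all bins there were 0.187% to 0.285%, 0.089% to 0.209% and 0.0147% to 0.127%. Differences between the muscles stayed at 0 members called throughout, also with the mouse as a block. The causes of these changes were not tested. The planned results of 1 gene that was not analysed were not run. Counts were fewest for Aldoc, at 0.0836 to 0.782 CPM.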
